A study of Mus musculus with 15 samples.

Results

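AP-1 and immediate early transcription factor genes were examined in 15 mouse cell lines. The set held 10 genes, taken by platform symbol: Fos, Fosb, Fosl1, Fosl2, Jun, Junb, Jund, Atf3, Egr1 and Ier3. They were read by 14 of the 45037 probe sets kept, and they are 10 of the 18193 genes measured. Each probe set is a group of short probes for one transcript on an Affymetrix expression array, and values are log2 expression as deposited. The lines were 12 with the genotype label AKP and 3 with the label AP, each hybridised once. Every line was grown without treatment in DMEM with 10% serum. The labels do not spell out the genotype letters, name no tissue and give no age. One AKP line, AKP 6, is labelled adenoma, a benign growth, and the other 11 AKP lines and the AP lines are labelled tumour. They mark 9 AKP lines and 1 AP line as female and 3 AKP lines and 2 AP lines as male, and give a pair number to 7 AKP lines (AKP 6 to AKP 12) and 1 AP line. The labels do not say which lines share an animal, so the tests cover only the spread among these cultures. Only whether a line has a pair number was used, not the number itself. Lines were thus treated as independent, and whether lines of one pair are alike was not tested.

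AP-1 is a transcription factor made of a pair of leucine zipper proteins, usually a Fos protein with a Jun protein or a pair of Jun proteins, and Atf3 can join such pairs. Fos, Fosb, Junb, Atf3, Egr1 and Ier3 are immediate early genes: serum, growth factors or stress raise their transcripts within minutes, without new protein synthesis, and the transcripts decay fast. Fosl1 (Fra-1) and Fosl2 (Fra-2) follow later and last longer, and Fosl1 is known for its dependence on sustained ERK signalling. Because these transcripts turn over quickly, they are also known to respond to the feeding, density and handling of a culture.

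The promoters of Fos, Jun and Atf3 are shown because these genes belong to the pairs that varied together between lines: Fos with Egr1, and Jun with Atf3 and Egr1. Each is the 250 bases before the gene's start, 5′ to 3′, from the RefSeq table for GRCm38.p6: Fos on chr12:85473640-85473889 (plus strand), Jun on chr4:95052223-95052472 (minus strand) and Atf3 on chr1:191183334-191183583 (minus strand). Capitals mark every match to the motifs searched.
Fos: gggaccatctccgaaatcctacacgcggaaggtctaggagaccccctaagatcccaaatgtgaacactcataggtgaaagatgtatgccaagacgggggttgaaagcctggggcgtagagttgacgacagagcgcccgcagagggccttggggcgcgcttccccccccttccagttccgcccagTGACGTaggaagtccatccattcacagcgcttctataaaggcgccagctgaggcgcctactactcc
Jun: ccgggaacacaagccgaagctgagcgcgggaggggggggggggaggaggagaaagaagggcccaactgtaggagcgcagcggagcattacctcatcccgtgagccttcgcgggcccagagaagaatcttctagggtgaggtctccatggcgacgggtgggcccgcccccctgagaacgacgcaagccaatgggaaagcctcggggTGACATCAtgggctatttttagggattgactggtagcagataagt
Atf3: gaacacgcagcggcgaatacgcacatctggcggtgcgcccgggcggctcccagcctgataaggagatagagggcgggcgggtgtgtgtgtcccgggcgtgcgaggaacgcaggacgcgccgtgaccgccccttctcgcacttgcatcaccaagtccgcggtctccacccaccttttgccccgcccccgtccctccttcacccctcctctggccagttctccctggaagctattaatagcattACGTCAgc
The motifs were TGANTCA, the AP-1 site, TGANNTCA, a site spaced for ATF and AP-1 pairs, TGACGT, the core of the CREB and ATF site, GCGNGGGCG, the EGR site, and the CArG box bound by serum response factor. Both strands were searched, and TGACGT can lie inside TGANNTCA. The Fos capitals are a TGACGT match at positions -66 to -61 from the start, the Jun capitals a TGANNTCA match at -45 to -38, and the Atf3 capitals a TGACGT match on the other strand at -8 to -3. The table held 8 of the 10 genes and not Fosl1 or Egr1. TGANNTCA occurred in 2 of these 8 (Jun and Jund) and in 11.9% of 32851 promoters of the same length. TGACGT occurred in 2 (Fos and Atf3) and in 6.47% of all, and GCGNGGGCG in 2 (Fosb and Fosl2) and in 4.70% of all. TGANTCA and the CArG box had 0 matches in these 250 bases among the 8, and occurred in 6.75% and 1.47% of all promoters. Sites farther from the start were not searched, so 0 matches does not mean that a gene lacks the site. A match is a run of letters and no evidence of binding.

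Array medians spanned 3.91 to 4.17, and 35.9% to 39.5% of probe sets per array were under 3, near the floor of the scale. The line AP 1 stood apart. It had Krt18, a keratin of simple epithelium, at 3.62 and Col1a2, a fibroblast collagen, at 15.49, and 9 of the 10 genes studied here had their lowest AP value in it. AKP 1 shared part of this, with Krt18 at 10.82 and Col1a2 at 12.60. AKP 8 had Krt18 at 8.93, and its fibroblast markers were mixed, with Col1a2 at 2.98 and Col3a1 at 12.57. Cdh1, Krt8 and Krt19 were also low in AP 1, at 3.70, 2.46 and 5.97. Epcam, another epithelial marker, went the other way. It lay at 9.82 in AP 1, above all other lines, and at 9.31 in AKP 1 and 9.28 in AKP 8, the highest of the AKP lines. In AKP 10 the epithelial markers were mixed, with Krt18 at 14.55 but Krt8 at 4.27 and Cdh1 at 5.89. Over 9 simple epithelium markers the summed log2 level ran from 55.2 to 105.7 in AKP lines and from 34.1 to 97.3 in AP lines. AKP 1 (55.2), AKP 10 (57.5) and AKP 8 (59.8) had the lowest sums of the AKP lines. Over 10 fibroblast and smooth muscle markers the summed level ran from 38.6 to 109.8 in AKP lines and from 64.4 to 124.1 in AP lines. AKP 1 (109.8) and AKP 8 (83.8) had the highest of these sums among the AKP lines. AP 1 had the highest sum of all lines (124.1), but Dcn, one of these markers, went the other way. It lay at 7.77 in AP 1, the lowest of the AP lines, and at 13.55 in AKP 3 and 14.65 in AKP 7. Limma called 0 of the 9 epithelial markers and 2 of the 10 fibroblast markers, Lum and Col1a1. Lum lay at 2.34 to 3.00 in AKP lines and 3.00 to 3.02 in AP lines, on the floor, so its call carries no information on its level, while Col1a1 was lower in AKP lines by mean (4.57 in AKP and 9.59 in AP lines). The part of these differences in the results was not tested. Haematopoietic markers ran from 21.1 to 28.3 over 6 genes in AKP lines and from 19.8 to 28.5 in AP lines, and Ptprc was at most 3.10. Other members were higher: Cd68, a lysosomal protein gene of macrophages, lay at 3.69 to 10.94 in AKP lines and 3.96 to 5.13 in AP lines (difference 3.74 ± 1.28, limma adjusted p = 0.16), and Lyz2, a lysozyme gene, lay at 8.61 in AP 1, while no other line exceeded 2.91. Endothelial markers ran from 14.6 to 18.4 over 5 genes in AKP lines and from 15.9 to 24.0 in AP lines, and 0 markers of either list were called. In a bulk culture, fewer cells of a type and less RNA per cell cannot be told apart.

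AKP lines were set against AP lines to find genes that differ with genotype. Fosl1 had the largest difference of the set, at 11.18 ± 1.00 in AKP lines (SD, n = 12) and 7.99 ± 2.88 in AP lines (SD, n = 3), yet it did not pass the adjusted threshold. None of the 10 genes was called: limma gave 0 higher and 0 lower at an adjusted p under 0.05, against 1.9% of all genes called in either direction (0.792% higher and 1.1% lower in AKP lines). Of all called genes 41.7% were higher in AKP lines, and 61.4% with each array centred on its median. None of the 14 probe sets was called either, against 1.29% of all probe sets. At an unadjusted p under 0.05 there was 1, Fosl1, against 16.5% of all genes. The log2 difference was above 0 for 6 and below 0 for 4, and above 0 for 52.8% of all genes. The median difference of the 10 was 0.53, and that of all genes 0.01. For none of the 10 were the values of the groups free of overlap, against 2.13% of all genes.

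**Figure D1:**
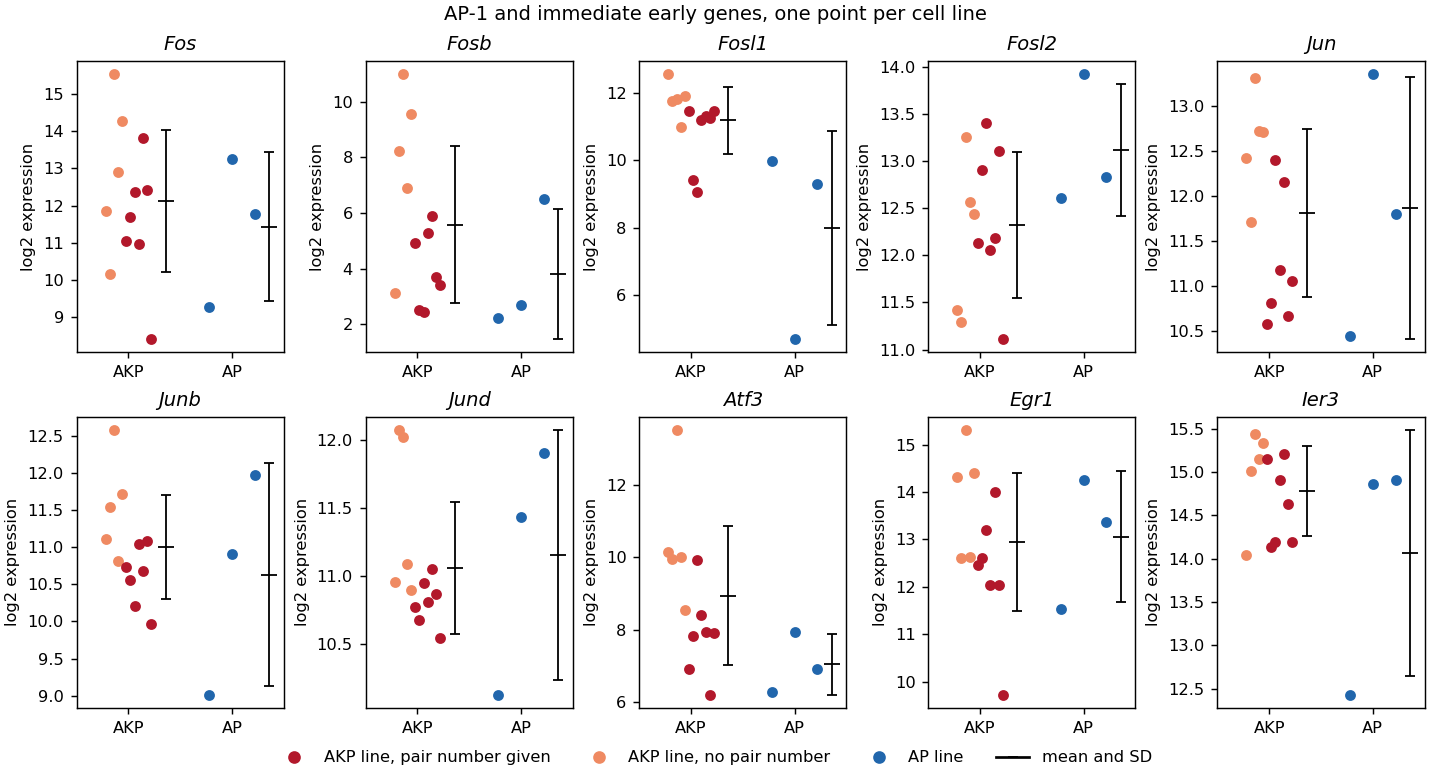
Log2 expression (vertical axes) of the 10 genes in 12 AKP lines and 3 AP lines, one point per line, with the mean and SD beside each group; AKP lines with and without a pair number have different reds. For Fosl1, 10 of the 12 AKP points are higher than all AP points, and the groups overlap for all 10 genes.

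Among the Fos genes, Fosl1 ran from 9.06 over a median of 11.38 to 12.55 in AKP lines, against 9.97, 4.69 and 9.31 in AP 1, AP 2 and AP 3. The lines AKP 7 (9.42) and AKP 8 (9.06) reached into the AP range, and the other 10 AKP lines exceeded all 3 AP lines. AP 2 was far lower than every other line. The log2 difference was 3.19 ± 0.91 (SE, limma adjusted p = 0.093), a fold of 9.13, with a 95% interval of 1.25 to 5.13 that is not adjusted for the number of genes. The SE, interval and p assume the same spread in both groups, but the SD was 1.00 in AKP lines and 2.88 in AP lines. Without AP 1 the difference was 4.18 (limma adjusted p = 0.047), and without AP 2 it was 1.54 (limma adjusted p = 0.26). Over the other alternatives the adjusted p lay between 0.050 and 0.44. The second Fosl1 probe set followed the first over the 15 lines (Pearson r = 0.99), with 6.11 to 10.45 in AKP lines and 7.32, 2.89 and 6.54 in AP lines, and a difference of 3.28 ± 0.88 (limma adjusted p over all probe sets = 0.093). Fosl1 was the only one of the 10 genes among the 501 entries of the authors' deposited table, beside 18193 genes measured on the array. That table gives it means of 8.98 in AKP and 5.58 in AP lines, a ratio of 10.5 and a step-up p of 0.0497. Those means equal the second probe set's over 10 AKP lines without AKP 1 and AKP 8 (8.98) and over the 3 AP lines (5.58). With those 10 lines, chosen after seeing the data, the first probe set differed by 3.27 (limma adjusted p = 0.061).

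Fosl2, the other late Fos gene, lay lower in AKP lines by mean, at 11.11, 12.31 and 13.40 (lowest, median, highest), against 12.61, 13.92 and 12.83 in AP lines. Of the 12 AKP lines, 8 lay below every AP line. The difference was -0.80 ± 0.48 (limma adjusted p = 0.44), with a 95% interval of -1.82 to 0.22. Its dimmer probe set did not follow the brighter one (r = -0.10 over 15 lines), with a difference of 0.37 ± 0.75. The sign for Fosl2 therefore depends on the probe set.

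Fos, the founding member of the family, ran from 8.41 over 12.11 to 15.53 in AKP lines, against 9.28, 13.25 and 11.77 in AP lines. The AKP lines spanned the whole AP range, with AKP 3 highest and AKP 12 lowest. The difference was 0.69 ± 1.20 (limma adjusted p = 0.83), and the 95% interval, -1.89 to 3.27, holds large changes in either direction. Without AP 1 the difference was -0.39. Fosb, whose product also pairs with Jun proteins, ran from 2.44 over 5.11 to 10.99 in AKP lines, against 2.22, 2.70 and 6.49 in AP lines. It was at or near the floor in AP 1 and AP 2 and in AKP 1, AKP 7, AKP 8 and AKP 12, and high in AKP 2, AKP 3 and AKP 5. The difference was 1.78 ± 1.72 (limma adjusted p = 0.67).

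On the probe set used for each gene, the Jun genes differed little by mean between the groups, with 95% intervals that hold changes in either direction. Jun lay at 10.58, 11.93 and 13.31 in AKP lines (lowest, median, highest), against 10.44, 13.35 and 11.80 in AP lines, and all 12 AKP lines lay inside the AP range. The difference was -0.06 ± 0.64 (limma adjusted p = 0.98; 95% interval -1.43 to 1.32). It was 0.05 with each array centred on its median. The second Jun probe set followed the first (r = 0.90) with a difference of -0.84 ± 0.63 (limma adjusted p over all probe sets = 0.59). On it, 6 of the 12 AKP lines lay below every AP line. The mean of both probe sets differed by -0.45. Junb, a Jun protein that often restrains Jun, lay at 9.97, 10.94 and 12.58 in AKP lines, against 9.01, 10.91 and 11.97 in AP lines. AKP 3 alone lay above every AP line, and the difference was 0.38 ± 0.55 (limma adjusted p = 0.79) and -0.44 without AP 1. Jund, the most constantly expressed Jun gene, varied least of the 10 among AKP lines (SD 0.48), at 10.55, 10.92 and 12.07, against 10.13, 11.43 and 11.90 in AP lines. Its difference was -0.10 ± 0.36 (limma adjusted p = 0.92), and 0.01 with each array centred on its median. Its other probe set stayed on the floor in all lines, at 1.77 to 1.94, and carries no information on its level.

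Atf3, a stress-induced partner of Jun, lay at 6.19, 8.48 and 13.54 in AKP lines, against 6.26, 7.94 and 6.90 in AP lines. In 7 of the 12 AKP lines Atf3 exceeded all AP lines, and in AKP 11 it was below them. The difference was 1.90 ± 1.13 (limma adjusted p = 0.44), with a 95% interval of -0.52 to 4.33. Egr1, a zinc finger factor induced with Fos, lay at 9.72, 12.62 and 15.31 in AKP lines, against 11.54, 14.25 and 13.37 in AP lines. The groups overlapped widely, and the difference was -0.11 ± 0.90 (limma adjusted p = 0.97). Ier3, an immediate early regulator of survival, lay at 14.04, 14.96 and 15.44 in AKP lines, against 12.43, 14.86 and 14.91 in AP lines. AP 1 lay below every other line. The difference was 0.71 ± 0.46 (limma adjusted p = 0.48), and -0.11 without AP 1.

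**Figure D2:**
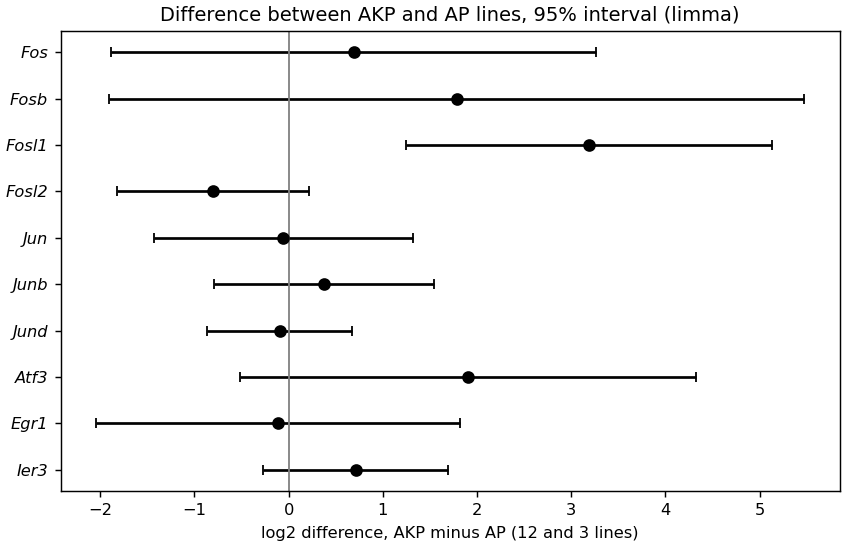
Log2 difference of each gene, AKP minus AP lines (horizontal axis), with the 95% interval of the limma fit, not adjusted for the number of genes. The interval of Fosl1, 1.25 to 5.13, is the only one that leaves out 0. The fit assumes the same spread in both groups, but the SD of Fosl1 was 1.00 in AKP lines and 2.88 in AP lines.

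Line by line, single lines were high or low for most of these genes. Relative to each gene's median over the 15 lines, AKP 3 lay above for all 10 genes, with a median of 1.59 on the log2 scale. It had the highest AKP value of 7 genes: Fos, Fosb, Jun, Junb, Atf3, Egr1 and Ier3. AKP 12 lay below for 9 genes (median -0.85) and had the lowest AKP value of Fos, Fosl2, Junb, Jund and Egr1. AKP 7 also lay below for 9 genes, by less (median -0.31). AP 1 lay below for 9 genes (median -1.52). AP 2 and AP 3 had medians of 0.24 and 0.13, within the range of the AKP lines.

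**Figure D3:**
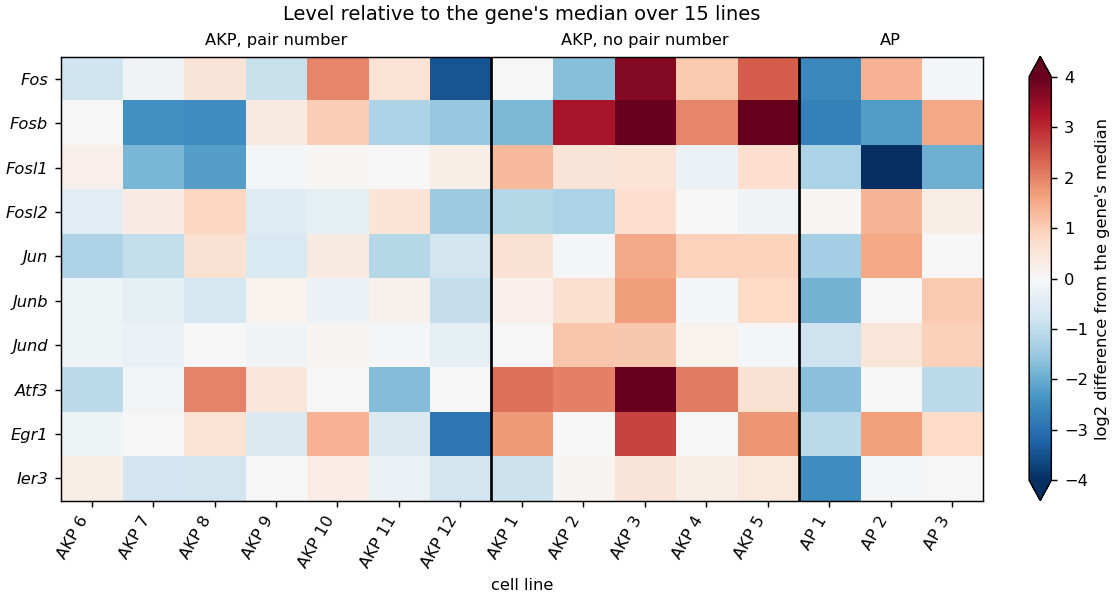
Log2 difference of each gene (rows) from its own median over 15 lines in each line (columns), with AKP lines with a pair number, AKP lines without one and AP lines divided by black lines. AKP 3 is above the median for all 10 genes, and AKP 7, AKP 12 and AP 1 are below it for 9.

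The 45 pairs of genes were correlated over the 12 AKP lines, with permutation p-values from 100000 resamples and Benjamini-Hochberg adjustment over the 45. Pearson r was above 0 for 44 pairs, with a median of 0.52. The only negative pair was Fosl1 with Fosl2 (r = -0.58, rho = -0.47, adjusted p = 0.13 and 0.24, permutation tests). Pearson r passed for 5 pairs and Spearman rho for 3. No such counts were made over pairs of other genes, so whether they are particular to this set was not tested. Fos and Egr1 had r = 0.86 (permutation p = 5.8e-04, adjusted p = 0.0071) and rho = 0.76 (permutation p = 0.0056, adjusted p = 0.052). Fosb and Ier3 had r = 0.87 (permutation p = 3.1e-04, adjusted p = 0.0071) and rho = 0.89 (permutation p = 2.0e-04, adjusted p = 0.0056). Jun and Atf3, which can pair with each other, had r = 0.82 (permutation p = 6.3e-04, adjusted p = 0.0071) and rho = 0.90 (permutation p = 2.5e-04, adjusted p = 0.0056).

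Fosb and Junb had r = 0.84 (permutation p = 4.0e-04, adjusted p = 0.0071) and rho = 0.71 (permutation p = 0.012, adjusted p = 0.084). The correlations of Fosb with Ier3 and Junb include lines with Fosb at or near the floor (AKP 1, AKP 7, AKP 8 and AKP 12). Jun and Egr1 had r = 0.73 (permutation p = 0.0048, adjusted p = 0.043) and rho = 0.81 (permutation p = 0.0021, adjusted p = 0.032). Without the 2 lines farthest from the median of the first gene, r was 0.62 for Fos and Egr1, 0.84 for Fosb and Ier3, 0.72 for Jun and Atf3, 0.60 for Fosb and Junb and 0.68 for Jun and Egr1. Without AKP 3 alone, a choice made after seeing the data, r stayed between 0.64 and 0.85 for these 5 pairs, but 1 of the 45 pairs passed the adjusted threshold. In the 7 lines with a pair number r was 0.94 for Fos and Egr1, 0.94 for Fosb and Ier3, 0.79 for Jun and Atf3, 0.52 for Fosb and Junb and 0.52 for Jun and Egr1. No r is given for the AKP lines without a pair number, of which there were only 5. Jund correlated with Junb, Atf3 and Fosb at r = 0.74, 0.73 and 0.71 without passing (adjusted p = 0.059, 0.059 and 0.062, permutation tests).

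**Figure D4:**
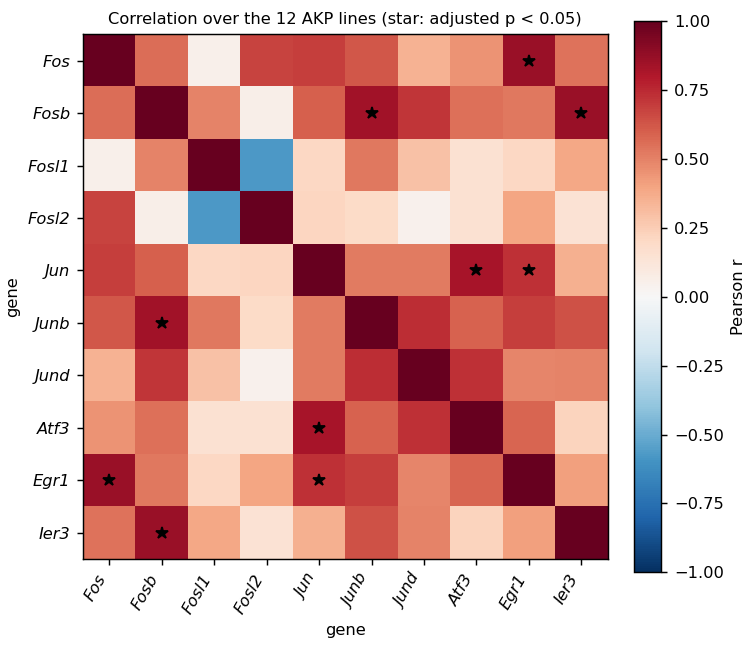
Pearson r between the 10 genes over the 12 AKP lines (rows and columns are genes), with stars at the 5 pairs with an adjusted permutation p under 0.05. The pair Fosl1 and Fosl2 is the only one below 0.

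**Figure D5:**
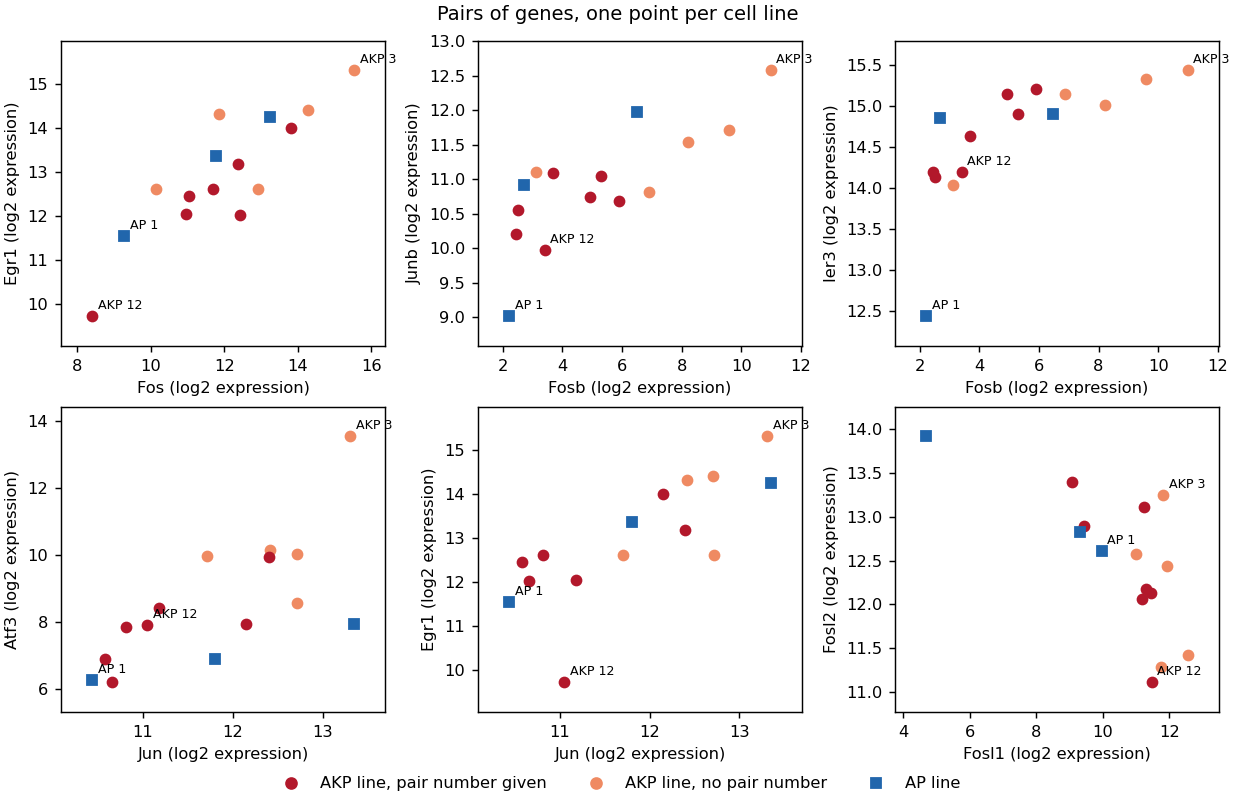
Log2 expression of both genes (axes) for the 5 pairs that passed and for Fosl1 with Fosl2, one point per line, AKP lines as circles and AP lines as squares. AKP 3 lies at the top right of the 5 panels with positive r, and AP 1 lies at or near the bottom left of them.

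The pair number splits the AKP lines, and what it stands for is not given in the labels. The fit on it was chosen after seeing the data. Of the 10 genes, 9 had the lower mean in the 7 AKP lines with a pair number, against 44.0% of all genes. The median difference was -1.19 for the 10 genes and 0.01 for all genes. Limma called 0 of the 10 at the adjusted threshold, against 0.17% of all genes (31 genes, and 0 without AKP 3). At an unadjusted p under 0.05 there were 5, all lower, against 6.09% of all genes that were lower at that threshold. Jun lay at 11.26 ± 0.73 (SD, n = 7) with a pair number and 12.57 ± 0.58 (SD, n = 5) without (difference -1.31 ± 0.38, SE, limma adjusted p = 0.14). Atf3 lay at 7.87 ± 1.18 with a pair number and 10.44 ± 1.85 without (difference -2.57 ± 0.83, limma adjusted p = 0.19), and Fosb at 4.03 ± 1.37 with one and 7.76 ± 3.01 without (difference -3.73 ± 1.22, limma adjusted p = 0.19). Fosb was at or near the floor in AKP 7, AKP 8 and AKP 12, which have a pair number, and in AKP 1, which has none. The size of its difference is therefore not exact. Junb and Jund differed by -0.94 ± 0.30 and -0.60 ± 0.22 (limma adjusted p = 0.18 and 0.24). Fosl2 was the exception, at 0.22 ± 0.45. With the pair label as a covariate, the AKP minus AP difference was 3.27 for Fosl1 (limma adjusted p = 0.093) and 2.48 for Atf3 (limma adjusted p = 0.16).

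Between lines labelled female and male, with genotype as a covariate, limma called 0 of the 10 genes, and 0.0% of all genes. None of the 10 had an unadjusted p under 0.05, against 3.16% of all genes. Differences (female minus male) lay between -1.48 for Fos and 0.39 for Junb. In the only line labelled adenoma, AKP 6, Jun lay at 10.58, just below the lowest of the 11 AKP tumour lines (10.66). Atf3 lay at 6.89, above 1 of the 11. The other 8 genes lay inside the range of the tumour lines, with Fos at 11.04 against a tumour median of 12.38 and Fosl1 at 11.45 against 11.31. With 1 line there is no test.

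Other genes of the pathway were taken from lists. Of 10 measured AP-1 relatives of the same leucine zipper class, limma called 0, against 1.9% of all genes, and the median difference was 0.17. Atf2, which pairs with Jun, differed by 1.28 ± 0.37 (limma adjusted p = 0.094), and the small Maf gene Maff by 1.13 ± 0.43 (limma adjusted p = 0.21), with all 12 AKP lines above every AP line for Maff. Batf differed by 0.27 ± 0.16. Of 27 other immediate early genes, 0 were called, against 1.9% of all genes, and 4 had an unadjusted p under 0.05, against 16.5% of all genes, with a median difference of 0.54. The nuclear receptor genes Nr4a2 and Nr4a1 differed by 2.64 ± 0.74 and 2.82 ± 0.84 (limma adjusted p = 0.089 and 0.11). Nr4a1 lay at 8.58 to 14.15 in AKP lines and 7.59 to 8.22 in AP lines, without overlap. Groups free of overlap, as for Nr4a1 and Maff, were found for 2.13% of all genes. Trib1 differed by 1.45 ± 0.61. Within the AKP group, 24 of these 27 genes had the lower mean with a pair number, against 44.0% of all genes, with a median difference of -0.93. An unadjusted p under 0.05 was found for 10 of them, against 14.1% of all genes.

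Upstream of AP-1, 6 genes of the RAF, MEK and ERK cascade were measured and 0 were called, against 1.9% of all genes. Araf, a RAF kinase gene, differed by 0.72 ± 0.19 (limma adjusted p = 0.077) with all 12 AKP lines above every AP line. The groups were free of overlap for 2.13% of all genes. The MEK genes Map2k2 and Map2k1 differed by -0.70 ± 0.20 and 0.80 ± 0.30 (limma adjusted p = 0.094 and 0.21). Of 10 genes of the JNK and p38 cascade, 0 were called (all genes 1.9%), and Map3k5 had the lowest p (difference 2.98 ± 1.02, limma adjusted p = 0.16). Map3k7 and Mapk8 differed by 0.73 ± 0.53 and 0.16 ± 0.12. Of 7 genes for serum response factor, its partners and Creb1, 0 were called (all genes 1.9%), and Elk3, Creb1 and Elk4 differed by 0.67 ± 0.27, 0.52 ± 0.30 and 0.19 ± 0.23.

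Among 17 measured genes known as AP-1 targets, 3 passed the adjusted threshold as higher in AKP lines and 0 as lower, against 0.792% higher and 1.1% lower over all genes, and the median difference was 1.11. The 3 were Plaur, the urokinase receptor, by 2.42 ± 0.41 (limma adjusted p = 0.010), Hmga2, a chromatin protein, by 3.35 ± 0.60 (limma adjusted p = 0.014), and Mmp10, a matrix protease, by 4.91 ± 0.98 (limma adjusted p = 0.023). Mmp10 lay near the floor in AP lines (2.47 to 5.08, mean 3.34), so the size of its difference is not exact. An unadjusted p under 0.05 was found for 10 of the 17, against 16.5% of all genes, and these include Mmp9, a gelatinase gene, and Timp1, a protease inhibitor gene, with lower means in AKP lines (differences -2.03 ± 0.56 and -2.02 ± 0.67, limma adjusted p = 0.084 and 0.15). Mmp9 was dim in AKP lines (3.44 to 4.85, SD 0.35) and spread widely in AP lines (4.27 to 8.50, SD 2.14), so the size of its difference is not exact either. Hmga2 lay at 13.07 ± 0.83 in AKP lines (SD, n = 12) and 9.72 ± 1.48 in AP lines (SD, n = 3), and 11 AKP lines exceeded all 3 AP lines. Within the AKP lines, Fosl1 was correlated with each of the 17 target genes, a choice made after seeing the data. After adjustment over the 17, Pearson r passed for 2, and no such count was made over other genes. For Vegfa, a vascular growth factor gene, r was 0.77 (permutation p = 0.0026, adjusted p = 0.040) and rho 0.68 (permutation p = 0.019, adjusted p = 0.18). For Cd44, an adhesion receptor gene, r was -0.75 (permutation p = 0.0047, adjusted p = 0.040) and rho -0.67 (permutation p = 0.022, adjusted p = 0.18). Without the 2 lines farthest from the Fosl1 median, AKP 7 and AKP 8, r was 0.34 for Vegfa and -0.64 for Cd44, so the relation with Vegfa rests on those lines. In the 7 lines with a pair number r was 0.75 for Vegfa and -0.80 for Cd44. Hmga2 had r = 0.69 with Fosl1 (adjusted p = 0.11, permutation test; -0.21 without those 2 lines), and Plaur and Mmp10 had r = -0.06 and -0.11.

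The genes whose pattern over all 15 lines was most like each of the 10 were ranked by Pearson r among 10734 named genes at or above 4.17 on average, as a description without a test. For Fos they were Egr1 (r = 0.87), Pgr, a progesterone receptor gene (0.85), and Nfkbia, an inhibitor of NF-kB (0.82). For Egr1 they were Fos, Zfp36, an mRNA decay factor gene induced early (0.82), and Tfdp2 (0.81). Junb was most like Ier2, another immediate early gene (0.90), the cyclin gene Ccnl1 (0.87) and Mapk8ip3, a JNK scaffold gene (0.83). For Jund the closest were Ccnl1 (0.90), Brwd1 (0.85) and Srrm2, a splicing factor gene (0.85). Atf3 was most like Csrnp1 (0.89) and the stress genes Nupr1 (0.86) and Ppp1r15a (0.85).

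Jun was most like Bcl6, a transcriptional repressor gene (0.82), Rabgap1l (0.80) and Acbd4 (0.78), and Fosb was most like Hilpda (0.86), the cytokine gene Csf2 (0.85) and Fer1l6 (0.84). Fosl1 was most like Parvb, an adhesion adaptor gene (0.84), Coro2a (0.84) and Tnfaip2 (0.82). Within the AKP lines alone, r with Fosl1 was 0.92 for Parvb, 0.51 for Coro2a and 0.92 for Tnfaip2. Fosl2 was most like Stx17, a syntaxin gene (0.86), Chmp4b (0.85) and Scyl3 (0.84). The genes most like Ier3 were Cystm1 (0.92), Galnt3 (0.91) and Slc38a1 (0.91), and without AP 1 their r was 0.75, 0.74 and 0.73.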

How the data were processed

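Each line's RNA was read on 1 Affymetrix mouse array, per the labels' protocols. The authors deposited log2 values for each probe set. How these were summarised and scaled is not given here, and the table has no detection calls. The authors' deposited table of AKP against AP gives p-values, log2 means, a linear ratio, a signed fold change and t scores, per the file headers. Of 45101 probe sets, 64 controls were left out. Of the 45037 kept, 34945 had 1 gene in the platform's table, 932 several and 9160 none listed; 34741 matched RefSeq (GRCm38.p6, used for names and promoter sequences). Each gene was represented by its probe set with the highest mean over 15 lines, without further scaling.

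Comparisons were fitted with limma 3.58.1 in R 4.3.3 over all 18193 genes, and over all probe sets, and genes were called at a Benjamini-Hochberg adjusted p under 0.05. Correlations used SciPy 1.17.1 in Python 3.11.15. The genes and lists were chosen with earlier results of these data known. Named list genes are those called, or else the 3 with the lowest p, and the 3 genes most like each member; other genes named, such as Cd44, Vegfa, Cd68, Lyz2, Mmp9 and Timp1, were chosen after their values were seen. Data were simulated for 18193 genes in the AKP against AP comparison. The fit called 42% of the genes given a log2 change of 1 and 62% of those given 2. It called 74% of those given 3 and 94% of those given 4. These rates are not specific to the AP-1 and immediate early set, whose genes varied more among AKP lines than most genes. Their SDs lay from percentile 59.3 of all genes (Jund) to 98.7 (Fosb), and their SEs from 0.36 (Jund) to 1.72 (Fosb). The rates therefore do not give the chance of calling a change in the set. Replicate numbers 1, 2 and 3 occur in both groups, but deviations of same-numbered lines correlated at 0.47, -0.02 and -0.08 over the brighter genes, so they were not treated as pairs. Alternatives covered the array scaling, the mean of a gene's probe sets, filters on dim genes, eBayes settings and weights for arrays. They also covered sex and pair labels as covariates, a replicate block and leaving out each line.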

Additional observations from a re-analysis of the deposited data

Results flagged for a closer look

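Single lines were checked for standing far from their group in 40 checks, 10 genes in AKP lines with and without a pair number and in lines labelled female and male, and 4 stood out. Chance alone gives about 1 in 20, and the checks share lines. All 4 were AP lines among the 5 lines labelled male, which mix both genotypes. Fos in AP 1 lay at 9.28 and Ier3 in AP 1 at 12.43, each below the other 4 lines. Fosl1 in AP 2 lay at 4.69, below the others, and Fosl2 in AP 2 at 13.92, above them.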

How the results depend on the processing

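The 3 AP lines limit every AKP against AP value, and values near 3 lie on the floor of the arrays. Over 269 alternative values of the 10 genes, 241 kept their direction and side of the threshold, 27 changed sign, all without passing, and 1 passed, Fosl1 without AP 1. The members called were thus 0, and 0 to 1 leaving out each line. Fosl1, Fosb, Atf3 and Fosl2 changed sign under none. These alternatives averaged a gene's probe sets but never used the dimmer one alone. For Fosl2 that probe set gave 0.37, against -0.80 for the brighter one, so its sign is not settled. Without AP 1 and AKP 1, chosen after seeing the data, Fos, Junb and Ier3 differed by -0.36, -0.45 and -0.040, and Fosl1 by 4.06 (adjusted p = 0.050). With each array centred on its median, Jun and Jund differed by 0.049 and 0.0091. With the sex label as a covariate Jun and Egr1 differed by 0.26 and 0.16, and with the pair label Jun, Jund and Egr1 by 0.31, 0.10 and 0.31. With the replicate block, which leaves only 3 pairs of lines to compare, they differed by 0.62, 0.53 and 1.02, Fosl1 by 4.04, and 0 genes were called. Leaving out each line gave -0.39 to 1.60 for Fos, -0.77 to 0.69 for Jun, -0.44 to 1.05 for Junb, -0.61 to 0.28 for Jund, -0.87 to 0.49 for Egr1, -0.11 to 1.14 for Ier3 and 1.54 to 4.18 for Fosl1. The cause of the sign changes was not tested. The 345 genes called became 191 at or above the 60th percentile, 153 with array weights and 728 with the 10 AKP lines matching the authors' means; leaving out each line gave 177 (without AP 3) to 584 (without AP 2), and among single AKP lines the count also moved by over 1.5 times when AKP 8 (540), AKP 5 (224), AKP 11 (219) or AKP 6 (216) was left out. Of the called genes 41.7% were higher in AKP lines, 16.3% when arrays were weighted and 63.9% among the brighter genes (60th percentile and up). The 5 correlated pairs became 14 over all 15 lines, 0 in the 7 lines with a pair number and 1 without AKP 3. The 31 genes called by pair number became 0 without AKP 3.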
